A study of Mus musculus with 2 samples.

Results

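The cells described here are muscle stem cells (MuSCs, the Pax7-expressing stem cells of adult skeletal muscle) that carried the transcripts of G2 and mitosis, sorted from plantaris muscle 5 days after sham surgery or mechanical overload (MOV). Of 4954 cells in both libraries, 275 met the rule, 273 in the MOV library and 2 in the sham library. All mice were Pax7rtTA; TRE-H2B-GFP, in which the Pax7 locus drives a doxycycline-dependent activator that switches on a nuclear GFP, and both groups were 26 weeks old and had drunk doxycycline at 2.0 mg/ml for 2 weeks. In MOV, synergist muscle of the lower hind limb was cut away so that the plantaris carried more load, and in sham surgery the tendon was only probed. Cells were sorted for VCAM without CD31, CD45 or SCA1, and each condition was a single droplet library. Nothing that sets sham apart from MOV could therefore be checked against replicates, and no p-value was computed. The labels speak of a single mouse per library, where the methods of the study describe several mice of both sexes.

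A cell entered the MuSC pool if mitochondrial genes held less than 10% of its unique molecular identifiers (UMIs, each standing for 1 captured transcript), it had at least 2000 UMIs, Pax7, Myf5 and Myod1 gave at least 2 UMIs together, Pdgfra gave none, and Acta1 and Ckm gave less than 2%. This left 94 cells of 1100 in the sham library and 1526 of 3854 in the MOV library. Members were chosen by measured values of 7 genes: a pool cell was called G2/M if Ube2c, Ccnb1, Cdc20 and Cenpf together reached 1000 CPM (UMIs scaled to 1000000 per cell) and at least the sum of the histone genes Hist1h1b, Hist1h2ap and Hist1h2ae. Cells with a larger histone sum of at least 1000 CPM were called S, and the rest non-cycling. In the MOV library 273 cells were G2/M, 270 were S and 983 were non-cycling. The last class is a remainder, and its cells are not shown to be out of the cycle. A Top2a UMI was found in 29.1% of them and a Mki67 UMI in 21.0%. In 174 of the 983, the summed level of DNA replication genes lay above the median of members. The classes were cut from the same transcriptomes that are described below, so differences between them are given as descriptions, with 95% intervals that cover counting error only.

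In the cell cycle, DNA is copied in S phase, and in G2 the cell builds up cyclin B and the kinase CDK1, whose activity starts mitosis. Chromosomes then condense, attach through kinetochores to the spindle, and are separated once the anaphase-promoting complex has marked securin and cyclin B for destruction, after which cytokinesis divides the cell. Adult MuSCs are mostly out of the cycle and divide when the muscle is injured or made to grow.

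The libraries differed in depth. The sham library held 7302661 UMIs and the MOV library 88498487. Among MOV cells the median was 41314 UMIs and 5683 genes for G2/M, 37118.5 UMIs for S, and 19976 UMIs and 4015 genes for non-cycling cells. The libraries shared 44 cell barcodes, of which 11 were in the sham pool and 3 in the MOV pool. A UMI of a Y-linked gene was present in 261 of the 273 MOV members and an Xist UMI in 1. Over the pools, a Y-linked UMI was present in 1407 of 1526 MOV cells and 81 of 94 sham cells, and an Xist UMI in 2 and 0.

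Members made up a larger share of the MOV pool than of the sham pool, with 1 library each. They were 17.9% of the MOV pool (273 of 1526 cells, exact binomial interval 16.0% to 19.9%) and 2.13% of the sham pool (2 of 94 cells, 0.259% to 7.48%). These intervals cover counting error within a library and not the spread between animals or libraries. The pool itself was chosen at full depth. Of sham cells within the mitochondrial and UMI limits, 109 of 578 had at least 2 UMIs of Pax7, Myf5 and Myod1. In the MOV library 1602 of 2754 did, and the part of depth in this was not tested. When the pool cells were thinned to 2000 UMIs and classed again, the shares were 19.0% (290 cells) and 1.06% (1 cell). Without the shared barcodes they were 17.8% and 1.20%. S cells made up 17.7% of the MOV pool and 6.38% of the sham pool (6 cells). Without the shared barcodes these shares were 17.7% and 2.41% (2 of 83 cells). The 11 shared cells of the sham pool had 23820 to 103126 UMIs there, and at most 2.26% of that in the MOV library. They were 1 of the 2 G2/M, 4 of the 6 S and 6 of the 86 non-cycling sham cells. The shares without them therefore leave out deep sham cells and are not shown to be better estimates.

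The 2 sham members had 103126 and 62446 UMIs. The first had a marker sum of 1367 CPM, with 47 UMIs of Ube2c, 35 of Ccnb1, 11 of Cdc20 and 48 of Cenpf, and the second had 1729 CPM, with 44, 22, 25 and 17. Both carried Pax7 (3 UMIs each), Cenpa (27 and 32 UMIs) and almost no histone UMIs, with histone sums of 19.4 and 32.0 CPM. The second had 36 UMIs of Myod1 and 6 of Myog, against 6 and 0 in the first. The barcode of the first was also found in the MOV library, at 1.99% of its UMIs, and the barcode of the second was not.

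**Figure D1:**
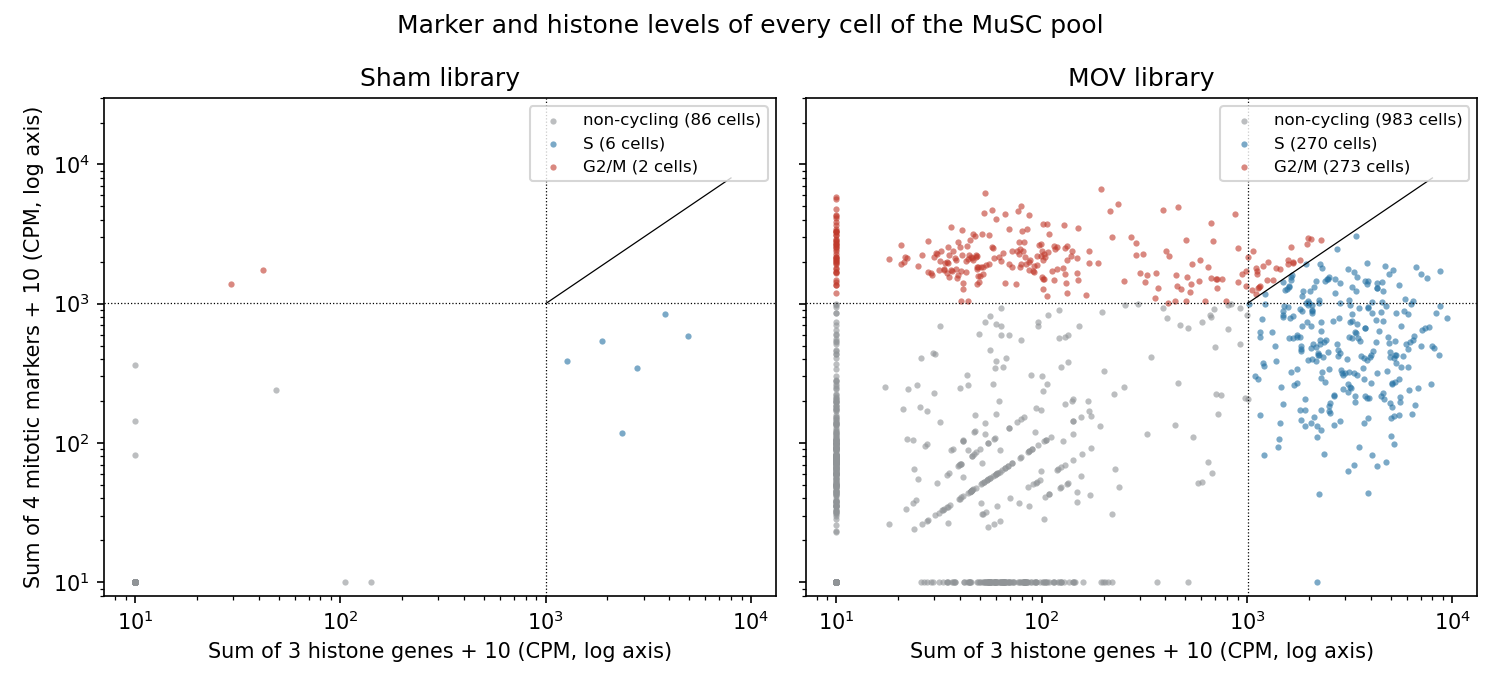
Each point is a cell of the MuSC pool in the sham library (left) and the MOV library (right), placed by the summed CPM of 3 histone genes and of 4 mitotic markers, both with 10 added and on log axes, with dotted lines at the threshold of 1000 CPM and a solid line where both sums are equal. In the MOV library 273 G2/M cells lie over the threshold, most of them far to the left of the S cells, and in the sham library 2 do, while most of its 86 non-cycling cells lie on top of each other at 0.

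The 4 markers encode proteins that act in G2 and mitosis. Ccnb1 encodes cyclin B1 (chr13:100778650-100786570 in GRCm38), Cenpf a kinetochore protein (chr1:189640606-189688086), Cdc20 the activator of the anaphase-promoting complex (chr4:118432901-118437352), and Ube2c the ubiquitin-conjugating enzyme that works with that complex (chr2:164769898-164778822). Cenpf was detected in all 273 MOV members, Ube2c in 272, Ccnb1 in 269 and Cdc20 in 268. Per cell, Ube2c ranged from 0 to 3579 CPM with a median of 997 CPM, Cenpf from 87.0 to 2691 CPM with a median of 559 CPM, Ccnb1 up to 1168 CPM with a median of 238 CPM, and Cdc20 up to 1360 CPM with a median of 233 CPM. Ube2c was the highest of the 4 in 221 members, Cenpf in 44, Cdc20 in 7 and Ccnb1 in 1. Plk1, the kinase that drives entry into mitosis (chr7:122159439-122169873), was not used by the rule and was detected in 214 members, with a median of 64.6 CPM and a maximum of 563 CPM. In S cells the median of Plk1 was 4.95 CPM, and in non-cycling cells it was 0.

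The promoters of such genes often hold a cell cycle homology region (CHR, TTTGAA), to which the DREAM complex and later B-MYB and FOXM1 are recruited, and CCAAT boxes, which bind NF-Y. Stretches of 110 bases upstream of the transcription start are given for 3 of the 4 rule genes and for Cdk1, the kinase partner of cyclin B, with TTTGAA and CCAAT on either strand in capitals, so that the spacing of the motifs can be seen. They are RefSeq sequences of GRCm38.p6, written 5′ to 3′ on the strand of the gene.
Ube2c (chr2:164769819-164769928, plus strand): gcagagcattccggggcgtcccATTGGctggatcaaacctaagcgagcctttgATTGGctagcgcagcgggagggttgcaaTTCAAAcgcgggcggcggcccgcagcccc
Ccnb1 (chr13:100786487-100786596, minus strand): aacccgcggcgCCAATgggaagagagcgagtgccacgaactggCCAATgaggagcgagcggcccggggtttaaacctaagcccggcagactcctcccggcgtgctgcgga
Cdc20 (chr4:118437344-118437453, minus strand): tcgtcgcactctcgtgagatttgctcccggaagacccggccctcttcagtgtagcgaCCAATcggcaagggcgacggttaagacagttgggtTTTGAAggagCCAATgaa
Cdk1 (chr10:69352913-69353022, minus strand): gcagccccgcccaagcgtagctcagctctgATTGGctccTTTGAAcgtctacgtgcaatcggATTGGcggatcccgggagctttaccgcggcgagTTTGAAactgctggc

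In these windows the CHR letters of Ube2c stood at positions -29 to -24 and those of Cdc20 at -18 to -13 from the start, and the Ccnb1 window held a pair of CCAAT boxes and no TTTGAA. In Cenpf, Ccnb2, Cenpa and Hmmr the CHR letters lay close to the start, and 30 bases around them are shown for that reason.
Cenpf (chr1:189688067-189688096, minus strand): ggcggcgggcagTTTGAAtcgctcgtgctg
Ccnb2 (chr9:70421533-70421562, minus strand): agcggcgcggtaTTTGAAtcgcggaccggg
Cenpa (chr5:30666890-30666919, plus strand): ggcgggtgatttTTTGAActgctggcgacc
Hmmr (chr11:40733412-40733441, minus strand): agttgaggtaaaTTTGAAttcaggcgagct

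TTTGAA on either strand occurred in 44.9% of 158 RefSeq windows of the genes in the mitosis lists (139 of 170 genes matched), against 17.9% of all 32851 windows of 300 bases. CCAAT occurred in 61.4% of the windows of the mitosis lists and in 37.4% of all windows. Within 40 bases before to 50 bases after the start, a region chosen after these promoters had been read, TTTGAA occurred in 32.9% and 4.39%. In the DNA replication genes (43 of 52 matched) it occurred there in 9.62% of 52 windows, while CCAAT was about as common as in the mitosis genes, at 55.8%. These are matches of letters and no measure of binding. A share was given only where at least 80% of the genes matched, and of the 111 genes at least 2-fold higher in members than in S cells 85 did, which is below that limit.

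Members were compared with S cells of the MOV library by summing UMIs over each class, over 10580 genes with at least 50 UMIs and not used by the rule. Over all these genes the median log2 ratio was 0.02. Of these genes 111 (1.05%) were at least 2-fold higher in members and 201 (1.90%) at least 2-fold lower. The higher side held 19 genes of the mitosis lists among its 111, with regulators of mitotic entry, spindle and centromere genes. The lower side held 34 histone and 10 DNA replication genes among its 201.

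The centromeric histone variant Cenpa stood out in level and in breadth, with 457 CPM in members, 130 CPM in S cells and 58.4 CPM in non-cycling cells, and a log2 ratio to S of 1.82 (1.74 to 1.90). It was detected in 99.6% of members. Cdc25c, the phosphatase that activates CDK1, was at 29.6 CPM against 7.49 CPM (log2 ratio 1.98, 1.64 to 2.34). Arl6ip1, a membrane protein of the endoplasmic reticulum, was at 754 CPM against 254 CPM (1.57, 1.51 to 1.63). Gas2l3, a protein of the cytoskeleton that acts in cytokinesis, was at 38.9 CPM against 10.5 CPM, the centrosomal gene Cep89 at 46.8 CPM against 10.6 CPM, and the DNA helicase Pif1 at 5.06 CPM against 0.71 CPM. For these 6 genes the cell with the most UMIs held at most 5.71% of the UMIs of the members.

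The other genes that the naming rule gave on the higher side rested on few cells. Krt18, an epithelial keratin, was at 14.5 CPM against 1.67 CPM (log2 ratio 3.12), but only 30 members had a UMI and 1 of them held 32.3% of the UMIs. Its partner Krt8 was at 21.2 CPM against 5.20 CPM in S cells and at 24.6 CPM in non-cycling cells. Without the leading cell of each class the log2 ratio to S stayed at 2.80 for Krt18, 1.88 for Krt8 and 1.95 for Sncg, a synuclein. For the chemokine Ccl5 it went from 2.50 to -0.28, since 1 cell held 87.5% of the UMIs. On the lower side, 98.4% of the Reg3g UMIs of S cells and 74.9% of the Fabp4 UMIs came from 1 S cell each, and without it the log2 ratio went from -6.25 to -0.87 and from -3.28 to -1.40. Markers of other cell types were measured in the same sums. The 10 immune markers summed to 24.7 CPM in members and 59.8 CPM in S cells, and the 8 endothelial markers to 6.87 and 24.8 CPM, with Kdr at 0 in members and S cells, while fibro-adipogenic markers summed to 859 and 1038 CPM and mural markers to 809 and 1109 CPM. The part of RNA from such cells in the ratios was not tested.

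Genes of mitotic entry were led by Cdc25c, Aurka (78.9 CPM in members, 28.2 CPM in S), Ccnb2 (239 and 86.7 CPM), Plk1 (80.7 and 32.9 CPM), Nek2 (50.6 and 21.3 CPM) and Cdc25b (48.6 and 22.3 CPM), which were the 6 of 20 genes of the list at least 2-fold higher than in S. The kinases Aurora A and PLK1 and the phosphatases CDC25B and CDC25C all act on the step at which cyclin B and CDK1 become active. Pkmyt1, which encodes a kinase that holds CDK1 inactive, was the lowest of the list, at 14.0 CPM against 28.2 CPM (log2 ratio -1.01). The median over the list was 0.52. Aurkb, the kinase of the chromosomal passenger complex, was at 77.7 and 77.5 CPM (0.00, -0.13 to 0.13), while its relative Aurka had a log2 ratio of 1.48 (1.30 to 1.67).

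Genes of the kinesins and spindle had the highest median of the mitosis lists against S, at 0.70, with 10 of 35 at least 2-fold higher and 32 above 0. Next to Arl6ip1 these were led by the importin Kpna2 (132 and 50.2 CPM), the kinesin Kif20a (73.2 and 28.4 CPM), Ckap2 (160 and 63.1 CPM), Knstrn (100 and 40.0 CPM) and Hmmr (223 and 91.4 CPM). The motor Kif11, which pushes the spindle poles apart, was at 127 and 108 CPM, and Stmn1, which destabilises microtubules, was at 915 and 1185 CPM. Cytokinesis genes had a median of 0.65, with Kif20a, Plk1 and Fam83d at least 2-fold higher among 18.

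Genes of other mitotic structures had medians near those of S cells. Centromere and kinetochore genes had a median log2 ratio of -0.00, and only Cenpa and the kinetochore motor Cenpe (183 and 84.9 CPM) of 35 were at least 2-fold higher. None of 11 spindle checkpoint genes, 16 centrosome genes, 23 nuclear envelope genes or 24 condensin, cohesin and chromosome genes reached 2-fold higher, with medians of 0.16, -0.28, -0.04 and -0.06. The checkpoint kinase Bub1 was at 64.1 and 45.1 CPM and Mad2l1 at 54.2 and 45.8 CPM. The condensin genes Ncapd3 and Ncapg2 were more than 2-fold lower in members, at 31.2 against 69.4 CPM and 35.9 against 77.1 CPM. Top2a, which untangles DNA, was at 641 and 650 CPM, and Mki67, a coat protein of mitotic chromosomes, at 245 and 268 CPM (log2 ratio -0.13, -0.20 to -0.06). Over all mitosis lists, 19 of 170 genes were at least 2-fold higher and 4 at least 2-fold lower than in S, where 1.05% and 1.90% of all genes were.

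Genes of the anaphase-promoting complex lay within 2-fold of S, with 1 exception. Over its 19 genes the median log2 ratio was 0.17 and none was 2-fold higher, and of its subunits Anapc5 was at 149 and 161 CPM and Cdc23 at 19.7 and 16.0 CPM. The late activator Fzr1 was at 55.2 and 30.1 CPM, securin (Pttg1) at 31.1 and 17.9 CPM, and Ube2s, the enzyme that extends ubiquitin chains for the complex, at 1296 and 913 CPM. Fbxo5, the inhibitor EMI1 that holds the complex off through S phase and G2, was the only gene of the 19 to fall more than 2-fold below S, at 46.2 against 122 CPM (log2 ratio -1.40, -1.54 to -1.26).

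**Figure D2:**
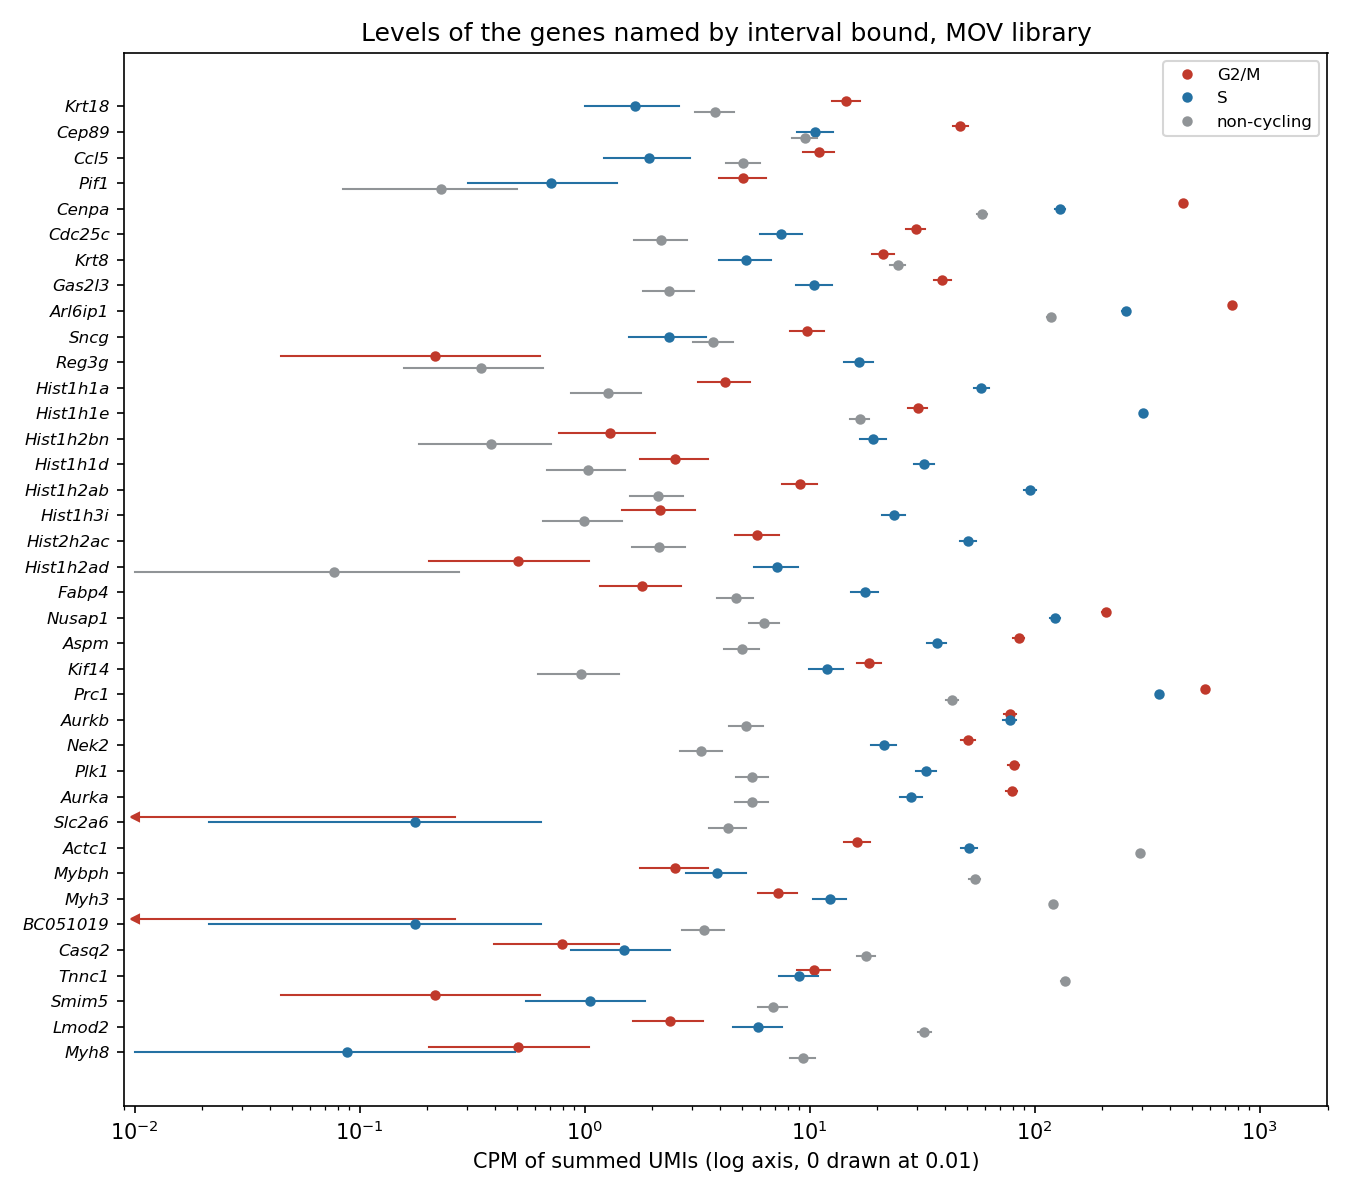
For genes named by the rule on the higher and lower side of each comparison (Gas2l3 by both), the dots give CPM of summed UMIs in 273 G2/M, 270 S and 983 non-cycling cells of the MOV library on a log axis and the lines the exact Poisson interval. Members lie to the right of both other classes for Cenpa, Arl6ip1 and Nusap1 and to the left of S cells for the histone genes, and Slc2a6 and BC051019, drawn as arrows at the left edge, have no UMI in members.

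S-phase transcripts were lower in members, although not gone. Of 38 replication-dependent histone genes with enough UMIs, 34 were at least 2-fold lower, where 1.90% of all genes were, and the median log2 ratio was -2.73. The rule used 3 genes of this family, so the fall of the rest follows in part from the choice of cells. The linker histone Hist1h1e was at 30.2 CPM in members and 304 CPM in S, and Hist1h1a at 4.19 and 57.8 CPM. Histone genes are near-identical copies that mostly lack a poly(A) tail, so reads may be split between them and counts from this poly(A)-primed assay are uncertain. Of 52 DNA replication genes, 10 were at least 2-fold lower and none higher, with a median of -0.80. The histone chaperone Chaf1b was at 8.68 and 36.9 CPM, the sliding clamp Pcna at 102 and 272 CPM, the helicase gene Mcm6 at 55.1 and 128 CPM, and Slbp, which binds histone mRNA, at 91.0 and 226 CPM. Dbf4, the activator of the CDC7 kinase, was an exception at 89.0 and 61.2 CPM. Nucleotide synthesis genes had a median of -0.38.

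Some of the regulators of these programs were also lower in members. E2f7 (6.87 and 24.7 CPM), E2f8 (12.7 and 34.7 CPM), Mybl2, which encodes B-MYB (7.81 and 19.0 CPM), and E2f1 (12.7 and 28.1 CPM) were the 4 of 23 regulators at least 2-fold lower in members than in S, where 1.90% of all genes were. The median log2 ratio over the 23 was -0.37. Foxm1 was at 24.9 and 25.2 CPM (log2 ratio -0.02, -0.25 to 0.21), and was at 3.84 CPM in non-cycling cells.

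Cyclins differed by the phase in which they act. Cyclin E genes were lower in members than in S, with Ccne2 at 9.91 against 63.3 CPM (log2 ratio -2.68, -2.95 to -2.41) and Ccne1 at 26.1 against 62.1 CPM. Ccna2, the cyclin of S and G2, was at 173 and 147 CPM, Ccnf at 13.4 and 15.3 CPM, and Ccnb2 at 239 and 86.7 CPM. Of the D cyclins, which act in G1, Ccnd1 was at 241 and 189 CPM, Ccnd3 at 132 and 172 CPM, and Ccnd2 at 1.66 and 5.55 CPM. Among CDK inhibitors, p21 (Cdkn1a) was at 400.0 CPM in members, 391.5 CPM in S and 435 CPM in non-cycling cells. Cdkn1b was at 37.96, 45.2 and 46.9 CPM, Cdkn2a at 66.2, 71.4 and 39.7 CPM, Cdkn2b at 9.83, 9.43 and 12.5 CPM, Cdkn2c at 64.0, 72.5 and 23.8 CPM, and Cdkn2d at 59.5, 65.9 and 20.3 CPM. Cdkn3, a phosphatase of CDKs, was the only CDK or inhibitor at least 2-fold higher than in S (82.9 and 32.0 CPM), and Cdk1 was at 360, 255 and 32.1 CPM.

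The p53 target Ccng1 was higher in members than in the other 2 classes, at 103, 55.3 and 57.1 CPM (log2 ratio to S 0.90, 0.76 to 1.04), while Trp53 was at 179 and 178 CPM in members and S, and Mdm2 at 89.1 and 80.5 CPM. Of 31 DNA damage and repair genes, none was at least 2-fold higher than in S, where 1.05% of all genes were. The recombination genes Rad51ap1 and Rad54l were the 2 at least 2-fold lower, where 1.90% of all genes were.

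Against non-cycling cells the difference was broader. Over 11515 genes the median log2 ratio was -0.05, 493 genes (4.28%) were at least 2-fold higher in members and 737 (6.40%) at least 2-fold lower. With every cell given equal weight in place of every UMI, 655 were higher and 602 lower. Of the 169 genes of the mitosis lists with enough UMIs, 128 were at least 2-fold higher and none lower. The medians were 3.40 for cytokinesis (16 of 18 higher), 3.39 for kinesins and spindle (32 of 34), 2.72 for mitotic entry (17 of 20), 2.48 for centromere and kinetochore (33 of 35), 2.36 for the spindle checkpoint (8 of 11), 1.33 for condensin, cohesin and chromosome (17 of 24), 1.05 for the centrosome (9 of 16) and 0.48 for the anaphase-promoting complex (4 of 19). Nuclear envelope genes had a median of 0.82, with 8 of 23 higher.

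Nusap1, which bundles spindle microtubules, led the comparison, with 207 CPM in members, 123 CPM in S and 6.30 CPM in non-cycling cells, a log2 ratio of 5.04 (4.81 to 5.27) to the latter. The microcephaly gene Aspm was at 85.0 CPM against 4.99 CPM and the kinesin Kif14 at 18.4 against 0.96 CPM. Prc1, which bundles the central spindle, was at 572 against 43.0 CPM and was detected in every member. Aurkb (log2 ratio 3.89), Nek2 (3.94), Plk1 (3.86), Aurka (3.83) and Gas2l3 (4.03) were also named by the rule on this side. The size of these ratios depended on the marker threshold, and their direction did not. At 500 CPM the log2 ratio was 6.57 for Nusap1, 5.47 for Aurkb, 5.34 for Plk1 and 5.20 for Aurka, and at 2000 CPM it was 2.46, 1.84, 2.05 and 2.23, since the cells between the thresholds changed class. Replication genes were also higher than in non-cycling cells, in 17 of 52 cases, with a median of 0.83.

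**Figure D3:**
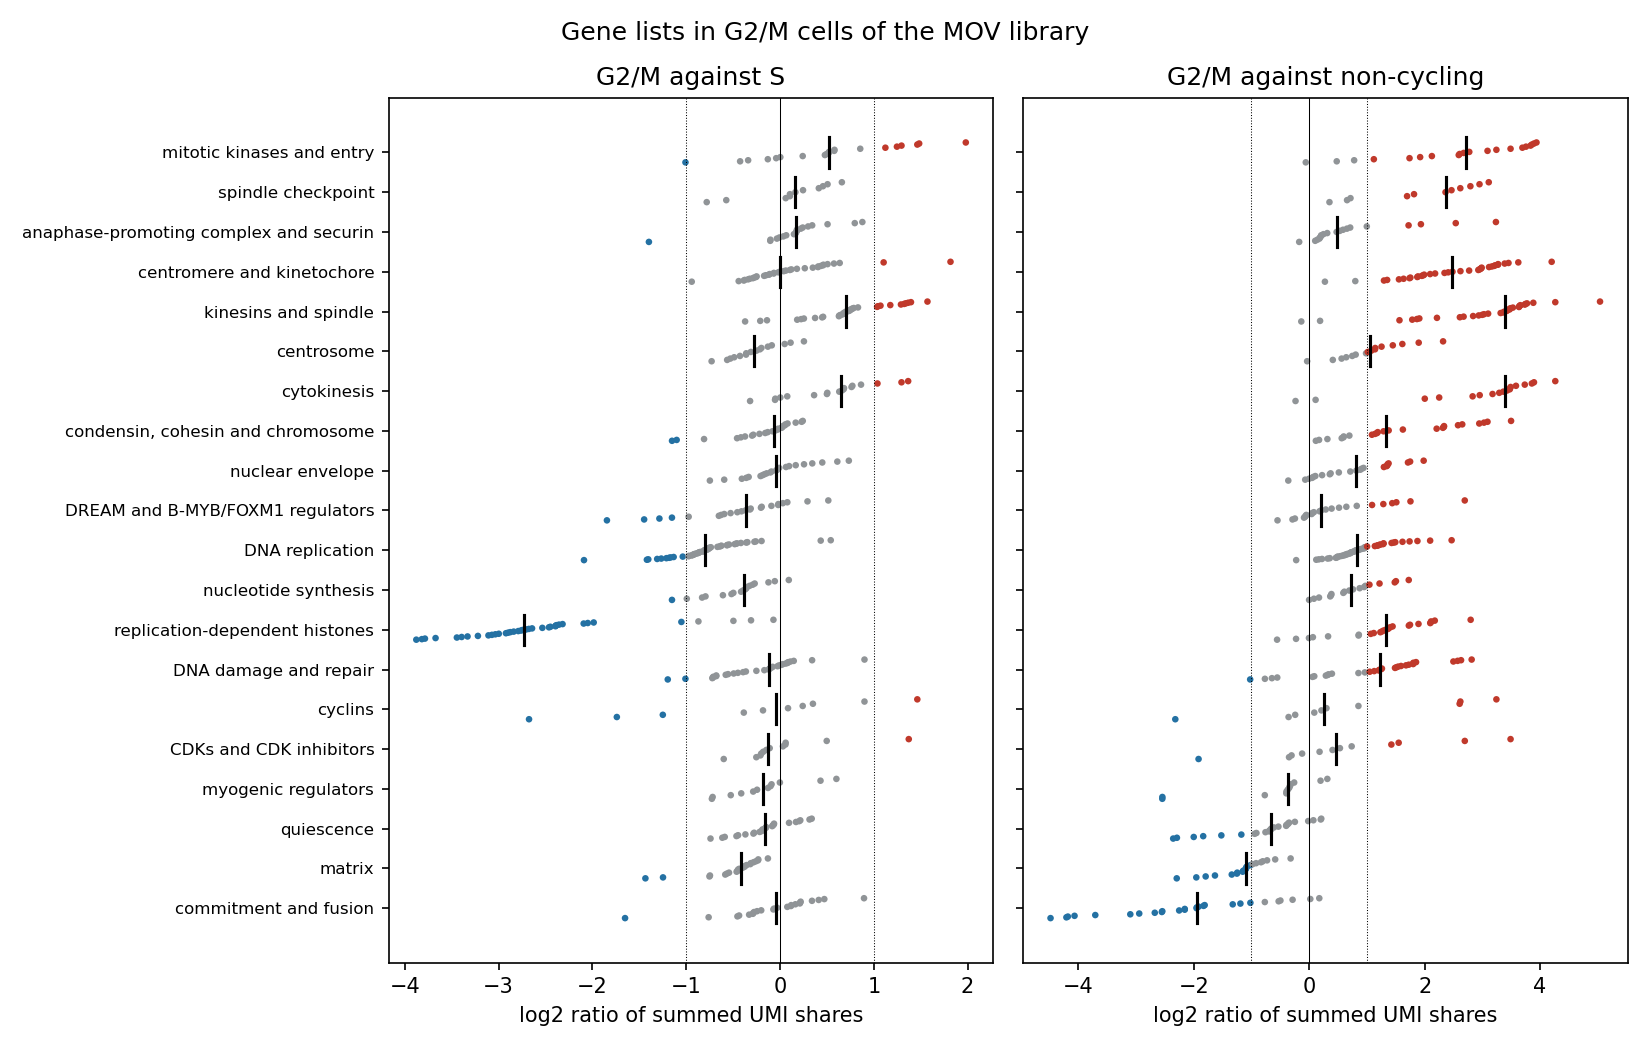
Each dot is a gene of a list, placed by its log2 ratio of summed UMI shares in the MOV library, members against S cells on the left and against non-cycling cells on the right, with red from 1 upward, blue from -1 downward and a bar at the median of the list. Against S the kinesin and histone lists lie apart, at medians of 0.70 and -2.73, and against non-cycling cells the median of every mitosis list lies above 0 while that of commitment and fusion lies at -1.95.

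On the lower side against non-cycling cells stood genes of the sarcomere and of fusion. Of 27 genes of commitment and fusion, 21 were at least 2-fold lower, where 6.40% of all genes were, and the median was -1.95. Cardiac actin (Actc1), which is expressed in forming muscle, was at 16.3 CPM in members, 51.1 CPM in S and 295 CPM in non-cycling cells. Embryonic myosin (Myh3) was at 7.23, 12.3 and 121 CPM, the troponin Tnnc1 at 10.4, 8.99 and 136 CPM, Mybph, a myosin-binding protein, at 2.53, 3.88 and 54.0 CPM, the calcium-binding protein Casq2 at 0.80, 1.50 and 17.7 CPM, and Lmod2, a regulator of thin filaments, at 2.39, 5.91 and 32.4 CPM. Neonatal myosin (Myh8) was at 0.51 CPM and Smim5 at 0.22 CPM in members, from few UMIs. Slc2a6, a hexose transporter, and BC051019 gave no UMI in members, and against 3 counts over the class they were at least 20.01-fold and 15.6-fold lower than in non-cycling cells.

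The direction of several of these genes turned when non-cycling cells with any UMI of Myog, Mymk or Mymx were left out. Such a UMI need not mark a committed cell. Myog reached 1000 CPM in 86 of the 983 non-cycling cells. A Myog UMI was also found in 21.1% of 337 MOV cells with Pdgfra and none of Pax7, Myf5 or Myod1. Of the 983 non-cycling cells, 568 had no UMI of Myog, Mymk or Mymx. Against these 568 cells, 753 of 10661 genes were at least 2-fold higher in members. The log2 ratio went from -4.18 to 0.60 for Actc1, from -4.06 to 1.46 for Myh3 and from -3.70 to 0.49 for Tnnc1. It went from -4.48 to 0.81 for Casq2, from -4.20 to 0.90 for Myh8, from -4.99 to 0.26 for Smim5 and from -1.92 to 0.52 for Cdkn1c. Members were not filtered in this way, and the part of this choice of cells in the turn was not tested. Of these 7 genes the counting interval of the second ratio included 0 for Casq2 (-0.83 to 2.69), Myh8 (-1.24 to 3.48) and Smim5 (-2.87 to 3.84). Of the genes of the mitosis lists, 127 were at least 2-fold higher against these cells.

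The gate required Pax7, Myf5 or Myod1 in every cell of the pool, so their presence and levels are a description. All 3 were detected in 166 members (60.8%), 62.6% of S cells and 30.9% of non-cycling cells, which had fewer UMIs per cell. Of the other members, 37 had Pax7 with Myod1, 31 Pax7 with Myf5 and 1 Pax7 alone. No Pax7 UMI was found in 22 with Myf5 and Myod1, 13 with Myod1 alone and 3 with Myf5 alone. Pax7 was at 59.7 CPM in members, 60.1 CPM in S and 78.5 CPM in non-cycling cells, Myf5 at 112, 130 and 165 CPM, and Myod1 at 195, 254 and 175 CPM. Among the other regulators no gene differed 2-fold from S. Six4 was at 35.8 and 26.5 CPM, Pax3 at 2.68 and 3.26 CPM, Mef2a at 114 and 74.9 CPM, and Eya1 at 19.96 and 21.2 CPM. Msc was at 102 and 109 CPM, Myf6 at 3.04 and 5.02 CPM, Id1 at 185 and 305 CPM, Id2 at 124 and 136 CPM, and Id3 at 608 and 811 CPM. Mef2c was at 4.41 CPM in members and 25.7 CPM in non-cycling cells, and with Myog it was 1 of the 2 regulators at least 2-fold lower against the latter.

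Myog, which switches MuSCs to differentiation, was at 97.2 CPM in members, 115 CPM in S and 567 CPM in non-cycling cells. A Myog UMI was found in 110 members (40.3%), 38.1% of S cells and 34.7% of non-cycling cells. In 337 cells of the MOV library with Pdgfra and without the gate genes, a cell type that should lack it, the share was 21.1% at a median of 35697 UMIs, against 41314 UMIs in members. After thinning to 2000 UMIs the shares were 6.59%, 7.78%, 14.9% and 2.08%. Levels of 1000 CPM or more occurred in 6 members (2.20%, 0.811% to 4.72%), 9 S cells (3.33%) and 86 non-cycling cells (8.75%).

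Those 6 members carried both programs in the same barcode. Their Myog ranged from 1442 to 3119 CPM and their marker sum from 1248 to 2869 CPM. The first had 133 UMIs of Myog, 22 of the fusion gene Mymk, 472 of Cdkn1c and 44 of Ube2c, with none of Pax7. The second had 295 UMIs of Myog, 51 of Mymk, 25 of Mymx and 106 of Ube2c, with 5 of Pax7 and none of Cdkn1c. They held 800 of the 1344 Myog UMIs of all members, and without them Myog was at 40.5 CPM. A histone sum over 1000 CPM was present in 3 of the 6. None of them was among the 75 cells of the MOV library that scored highest as doublets, and whether they are doublets was not tested further.

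Cdkn1c, the CDK inhibitor p57, was at 197 CPM in members, 227 CPM in S and 744 CPM in non-cycling cells. Its median over members was 19.3 CPM and its highest value 11068 CPM, and 1 cell held 17.3% of its UMIs in members. Without the 6 members with much Myog it was at 119 CPM in members. A level of 1000 CPM or more was reached by 10 members, 11 S cells and 95 non-cycling cells.

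Many matrix genes and some quiescence genes were lower in members than in non-cycling cells. Of 22 matrix genes 15 were at least 2-fold lower, where 6.40% of all genes were (median -1.09), among them the glypican Gpc3 (5.64 CPM in members, 15.3 CPM in S, 27.7 CPM in non-cycling cells), Ccn2 (39.8, 94.6 and 154 CPM) and Islr (30.7, 45.5 and 106 CPM). Of 26 quiescence genes 6 were at least 2-fold lower, against the same 6.40% (median -0.65), with Chrdl2 at 2.75 and 14.1 CPM and Gpx3 at 121 and 432 CPM in members and non-cycling cells. Of 20 MuSC surface and adhesion genes 1 was at least 2-fold lower and none higher (median -0.27). That gene was Vcam1, used in the sort, at 337 and 743 CPM, and it was detected in 99.6% of members. Against S cells none of 25 quiescence genes and none of 19 surface genes was 2-fold apart (medians -0.16 and -0.09). Of 22 matrix genes 2 were at least 2-fold lower than in S, where 1.90% of all genes were (median -0.42). Of 9 fibro-adipogenic genes with enough UMIs 4 were at least 2-fold lower, where 6.40% of all genes were, and their summed level was 859 CPM in members, 1038 CPM in S and 1711 CPM in non-cycling cells, with Pdgfra at 0 by the rule. The 8 mural genes summed to 809, 1109 and 1514 CPM, the 7 tenocyte genes to 69.5, 67.9 and 154 CPM, and the 10 muscle fibre genes to 399, 385 and 1346 CPM. The part of such RNA in the difference was not tested. Schwann and erythroid genes summed to at most 2.50 CPM in every class.

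Lists of metabolism and heat shock genes held no gene that was 2-fold apart between the classes. These were 39 respiratory chain genes, 35 ribosomal protein genes, 18 glycolysis genes and 14 heat shock genes, in both comparisons, with medians from -0.08 to 0.16. Immediate-early genes had a median of -0.27 against S and -0.55 against non-cycling cells, and interferon genes 0.10 and -0.37.

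Members were not alike among themselves. By marker sum, 127 lay from 1000 to under 2000 CPM, 126 from 2000 to under 4000 CPM, and 20 at 4000 CPM or more. Mitotic genes outside the rule were higher along these tiers, which were cut by the markers that chose the cells. Plk1 was at 71.8, 88.2 and 125 CPM, Ccnb2 at 207, 260 and 480 CPM, Cenpa at 380, 520 and 872 CPM, and Cenpe at 145, 208 and 442 CPM. The kinesin and spindle list summed to 5029, 6708 and 11293 CPM. Mki67 was at 197, 269 and 678 CPM, against 268 CPM in S cells. Some S-phase transcripts were lower along the same tiers, with Pcna at 117, 87.8 and 37.6 CPM and Mcm3 at 105, 72.3 and 25.8 CPM. Slbp was at 99.9, 81.9 and 67.4 CPM, and Ccne2 at 12.8, 6.98 and 1.98 CPM, against 63.3 CPM of Ccne2 in S cells. The DNA replication list summed to 2293, 1964 and 1217 CPM. Replication-dependent histone genes did not fall steadily, with sums of 337, 244 and 293 CPM. The Poisson intervals of the low and the high tier were apart for Plk1, Ccnb2, Cenpa, Cenpe, Mki67, Pcna and Mcm3, and overlapped for Slbp (92.8 to 107 and 46.7 to 94.1 CPM) and for Ccne2 (10.3 to 15.6 and 0.05 to 11.04 CPM).

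**Figure D4:**
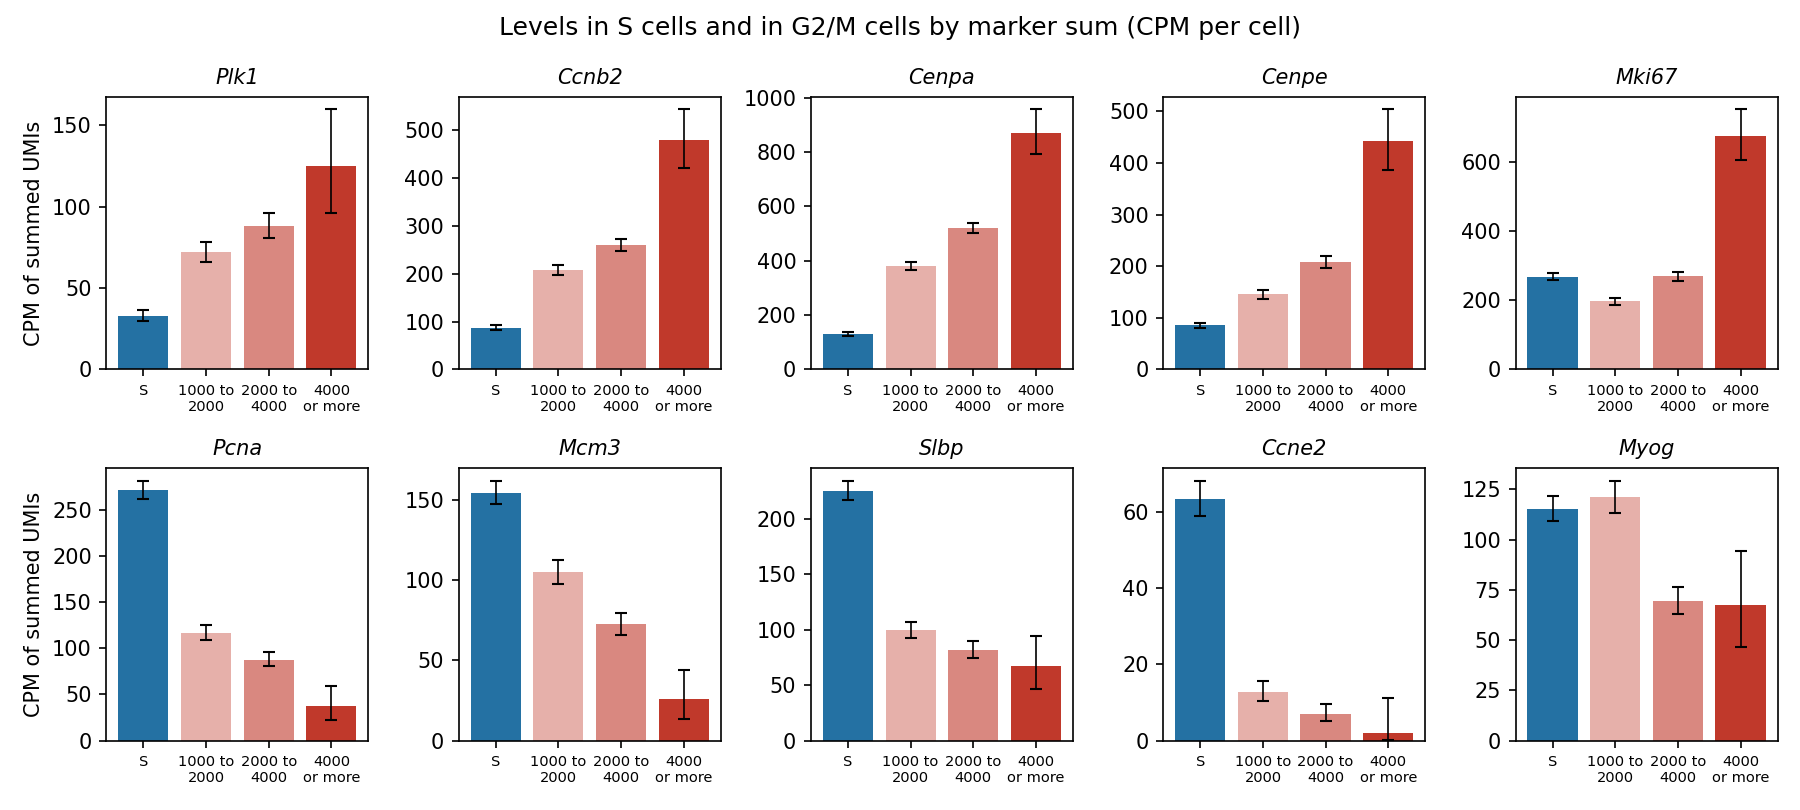
The bars give CPM of summed UMIs in 270 S cells (blue) and in members with marker sums of 1000 to 2000, 2000 to 4000 and 4000 CPM or more (127, 126 and 20 cells, red), with exact Poisson intervals that cover counting error only. Plk1, Ccnb2, Cenpa and Cenpe climb from left to right, Pcna, Mcm3, Slbp and Ccne2 go down, and Mki67 dips in the first tier before it reaches 678 CPM in the last. Myog is at 121, 69.4 and 67.4 CPM in the tiers and 115 CPM in S cells, and without the 6 members with at least 1000 CPM of Myog at 31.8, 48.8 and 67.4 CPM in the tiers, the opposite order.

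The 20 cells of the top tier differed from the rest in depth and in other programs. Their median depth was 23152 UMIs against 51667 in the lowest tier, and their mitochondrial share was similar (2.59% and 2.87%). Immediate-early genes summed to 9111 CPM over the top tier against 2656 and 2670 CPM in the others, and 15 of the 20 cells lay above the median of all members. The per-cell median in the top tier was 7517 CPM, with a lowest value of 1727 and a highest of 32307 CPM. Jun, a subunit of AP-1, was at 1603 CPM against 455 CPM in the lowest tier. Heat shock genes summed to 30048 against 18660 CPM, with Hspb1 at 3323 against 1122 CPM, but this was not shared by all 20 cells. Of them 13 lay above the median of all members, against 58 of 127 in the lowest tier. The lower and upper quartiles per cell were 16344.5 and 46720 CPM in the top tier, and 15374.5 and 20515 CPM in the lowest. Ribosomal protein genes took the other direction, with per-cell medians of 84491 CPM in the top tier, 119833 CPM in the middle and 129050 CPM in the lowest, and only 2 of the 20 cells lay above the median of all members. DNA replication genes likewise summed to 1217 CPM against 2293 CPM, with 2 of 20 cells above that median. Fibro-adipogenic markers summed to 738, 947 and 1629 CPM from the lowest to the top tier, mural markers to 742, 819 and 1686 CPM, and interferon genes to 1948, 2126 and 4028 CPM. Shallow depth and these markers moved with the values of the top tier, and their part in them was not tested.

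**Figure D5:**
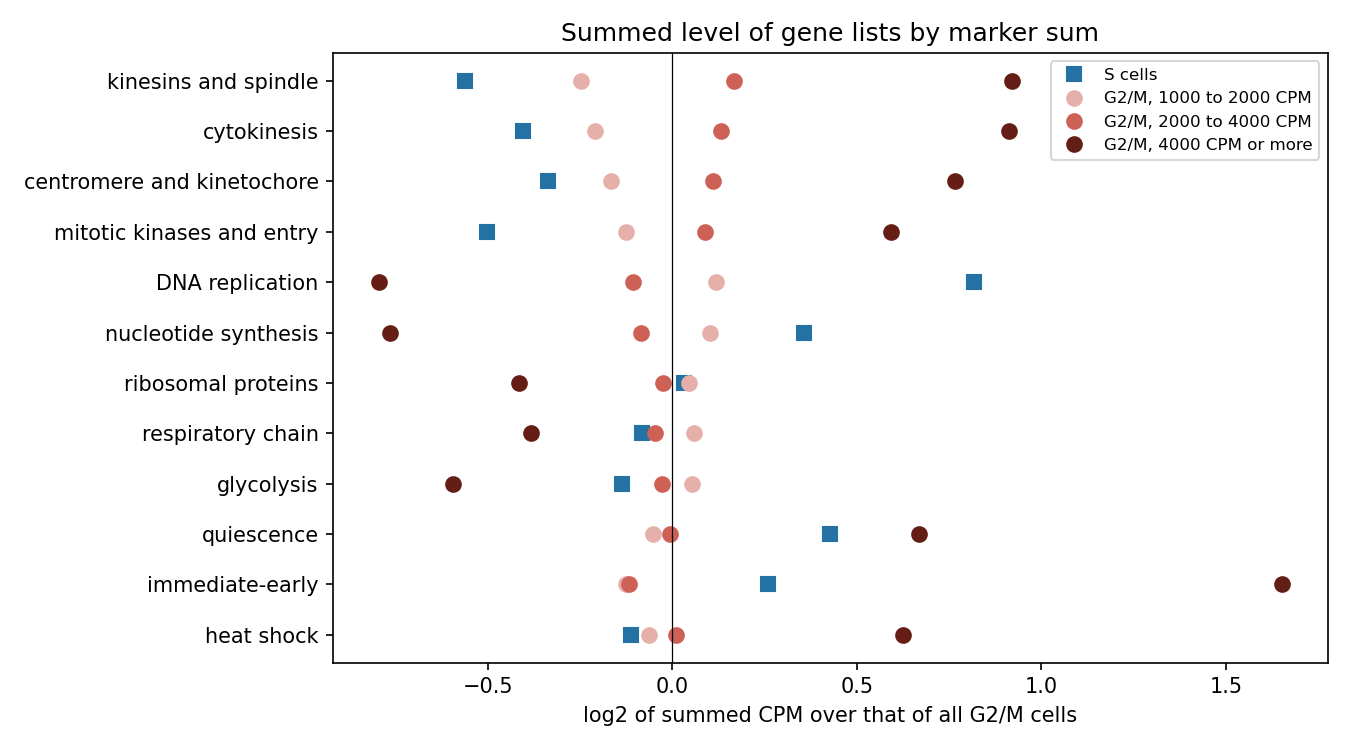
Each point is the summed CPM of a gene list in S cells (square) or in a tier of members (dots), as the log2 ratio to the sum over all 273 members of the MOV library. The top tier of 20 cells lies farthest to the right for immediate-early, spindle and cytokinesis genes, and farthest to the left for DNA replication, nucleotide synthesis, glycolysis and ribosomal protein genes.

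Members led by Cenpf differed from those led by Ube2c. The 44 Cenpf-led cells had a median of 26240 UMIs and the 221 Ube2c-led cells 44821. In the Cenpf-led cells the centromere list summed to 3749 against 3028 CPM, immediate-early genes to 6659 against 2483 CPM, quiescence genes to 7245 against 4432 CPM and glycolysis genes to 5619 against 8313 CPM. The log2 ratio of Cenpf-led to Ube2c-led cells was 1.24 for Aspm, 1.10 for Gas2l3 and 1.04 for Mki67, and -2.64 for Myog and -1.40 for Cdkn1c. All 6 members with at least 1000 CPM of Myog were Ube2c-led, and without them the ratio was -1.35 for Myog (-2.05 to -0.72) and -0.63 for Cdkn1c (-0.94 to -0.33). Fibro-adipogenic markers summed to 1500.1 CPM in the Cenpf-led and 792 CPM in the Ube2c-led cells, mural markers to 1364 and 740 CPM, and immune markers to 64.5 and 20.3 CPM. The part of such RNA and of depth in these differences was not tested.

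At the edges of the rule the classes graded into each other. The 8 members with a marker sum of 1000 to under 1100 CPM had 200 CPM of Ccnb2 and 114 CPM of Pcna, and the 11 cells just below the threshold, from 900 to under 1000 CPM, had 136 CPM of each. Both sums reached 1000 CPM in 25 members and 57 S cells. The 12 members whose marker sum was less than 1.25 times the histone sum had 92.2 CPM of Plk1, and the 13 S cells on the other side of that line had 113 CPM.

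The same thresholds were passed by 36 of 337 Pdgfra cells without the gate genes in the MOV library (10.7%, 7.59% to 14.5%), so mitotic transcripts under MOV were not confined to the MuSC pool. These cells as a group had 25.8 CPM of Plk1 and 49.2 CPM of Nusap1. Of 23 fibre droplets none passed, which allows a share of up to 13.0% by the 3 counts that a count of 0 allows and 14.8% by the exact binomial interval, and their marker sum was 24.4 CPM, against 122 CPM in non-cycling cells and 2081 CPM in members.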

How the data were processed

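The authors aligned the reads of both libraries with Cell Ranger 6.0.0 to mm10 and deposited filtered matrices of raw UMI counts for 32285 genes, 1 per condition, with no normalization (R 4.0.2 and Seurat 4.0.2 are named in the submitters' processing notes and were not needed here). From these counts the pool, the classes and class sums were computed with numpy 2.4.6, scipy 1.17.1 and pandas 2.3.3. The members and gene lists (35 lists) were chosen with earlier results of these data known. Shares have exact Clopper-Pearson intervals, CPM exact Poisson intervals, and ratios of summed UMIs exact conditional intervals, all at 95% and for counting error only. Reads carry UMIs, but cells of 1 library are not replicates of a condition. The ratio script was tested on simulated data. Ratios were taken over genes with at least 50 UMIs, and called at 2-fold. Genes without UMIs in a class were set against 3 counts. The named genes were, per comparison, the 10 higher and 10 lower genes whose interval bound nearest 0 lay farthest out, the genes of the rule, and members of the lists. A few genes that this rule names are not reported here. Doublets were kept in the main values, and scored with scanpy 1.11.5 for an alternative. Scaling factors came from edgeR 4.0.16 and DESeq2 1.42.0 in R 4.3.3, and figures from matplotlib 3.10.9. Gene coordinates are from GENCODE on GRCm38, and promoters from RefSeq. The labels and the study's methods differ in the number of mice and the sucrose in the water, and the series' design text names GFP as the sorting signal where the protocols name surface antigens.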

Additional observations from a re-analysis of the deposited data

Results flagged for a closer look

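Cells outside the MuSC pool also passed the thresholds on the 4 mitotic markers. Of the 337 cells of the MOV library with at least 2 UMIs of Pdgfra and none of Pax7, Myf5 or Myod1, 36 did so (10.7%, exact interval 7.59% to 14.5%), with a median of 35697 UMIs over the 337 cells. Of 27 such cells in the sham library none did, which allows a share of up to 11.1% by the 3 counts that a count of 0 allows and 12.8% by the exact interval, at a median of 11880 UMIs, so a difference between the libraries was not detectable at this number of cells.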

How the results depend on the processing

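No paired analysis was possible because each condition had 1 library, and for the same reason no replicate could be left out. The G2/M share of the MOV pool was 20.9% at a marker threshold of 500 CPM, and 9.57% at 2000 CPM. At 2000 CPM the sham share was 0%, and 309 of 11634 genes were 2-fold higher than in non-cycling cells. Against S cells, 169 of 10304 genes were higher without cells over both thresholds and 179 of 10580 with equal weight per cell. With a minimum of 200 UMIs per gene, 51 were higher and 83 lower than in S among 7737 genes. Against non-cycling cells 374 were lower among 8909 genes. The main comparisons held 10580 and 11515 genes. With no minimum and 0.5 UMI added, 1717 of 17661 genes were higher and 2282 lower than in S. Of 18839 genes, 1578 were then higher and 2571 lower than in non-cycling cells. The genes of the mitosis lists higher than in S numbered from 14 to 26 over the alternatives. Against non-cycling cells without Myog, Mymk or Mymx, 753 of 10661 genes were higher. This alternative was chosen after seeing the data, as were those without shared barcodes and without the leading cell of a gene. With it the log2 ratio turned to 0.60 for Actc1, 0.81 for Casq2, 0.52 for Cdkn1c and 1.46 for Myh3. It turned to 0.90 for Myh8, 0.26 for Smim5 and 0.49 for Tnnc1, with intervals that include 0 for Casq2, Myh8 and Smim5. Reg3g turned to 5.59 against S with classes from thinned counts and Ccl5 to -0.28 without its leading cell, both resting on single cells. Of 995 values of 57 gene ratios over 18 alternatives, 9 changed sign from a main ratio of at least 2-fold. Another 795 stayed within the counting interval and 191 lay outside it. Sign changes of smaller main ratios were not counted apart. Cdkn1c against S was such a case, going from -0.20 to 0.28 at 2000 CPM. In 117 values a called ratio moved by over 1.5 times. The marker threshold moved ratios to non-cycling cells, with Aspm at 5.32 and 2.60, Kif14 at 5.81 and 2.78, Gas2l3 at 4.67 and 2.70 and Nek2 at 4.74 and 2.33 for 500 and 2000 CPM. Leaving out the 6 members with much Myog, also chosen after seeing the data, turned the order of Myog over the tiers to 31.8, 48.8 and 67.4 CPM. The 94 cells of the sham pool leave an interval of 0.259% to 7.48% for its share.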
